A study of Mus musculus with 8 samples.

Results

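The cornified envelope genes of forestomach epithelium were examined in cancers and control tissue of the mouse gastric squamous-columnar junction (SCJ), the border at which the stratified squamous epithelium of the forestomach meets the glandular epithelium of the stomach. The genes were chosen by name: every Sprr and Lce gene with a number in its symbol, plus Lor, Ivl, Flg, Rptn, Hrnr, Krtdap, Sbsn, Dmkn, Tgm1, Tgm3, Cnfn, Crct1 and Sfn. These names matched 46 of the 23361 genes of the deposited table, and Flg was not analysed here. They comprised 14 small proline-rich (SPRR) genes, 20 late cornified envelope (LCE) genes and 12 others.

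The 5 cancers carried the genotype Trp53-/-Rb1-/- and arose in Lgr5-eGFP-Ires-CreERT2 Trp53loxP/loxP Rb1loxP/loxP Ai9 mice given tamoxifen. In these mice Cre is expressed from the Lgr5 locus, so recombination starts in Lgr5-expressing cells, and the tdTomato reporter of Ai9 guided the dissection of each tumor. The 3 samples of control tissue were SCJ from wild-type stomachs of age-paired mice, separated from the squamous forestomach and the antrum. Tamoxifen was also given to control mice of the tumor induction experiments, but whether the wild-type controls sequenced here were among them, or carried Cre or the reporter, is not clear from the methods and labels. RNA was sequenced from polyadenylated, directional libraries, and each gene had 1 value per sample in FPKM (fragments scaled by transcript length and library size), rounded to a whole number.

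Stratified squamous epithelium renews from a basal layer. Cells that leave this layer stop dividing, change their keratins and, in the outermost layers, build a cornified envelope beneath the plasma membrane. Involucrin and desmosomal proteins form the first scaffold, loricrin and SPRR proteins add the bulk, LCE proteins join late, and transglutaminases cross-link them. The rodent forestomach is lined by such a keratinized epithelium, whereas the glandular stomach is not. Most of these structural genes lie side by side in the epidermal differentiation complex.

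The libraries differed before any gene of the envelope was considered. FPKM over all genes summed to between 403569 and 573858 in the cancers and to between 887141 and 992550 in control tissue. The number of reads per library is unknown, so no counting error is given and a gene without signal is described as listed at 0. Of the deleted genes, Rb1 was at 4 to 6 FPKM in the cancers and 9 to 10 in control tissue, and Trp53 at 12 to 30 and 16 to 19. These values cover whole genes, so they do not show the deleted exons. Squamous tissue was present in all 3 control samples, in which the 13 squamous keratins measured summed to 3746, 6362 and 5986 FPKM.

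Most envelope genes were lower in the cancers than in control tissue. Of the 45 genes tested with limma on log2(FPKM + 1), 31 fell at an adjusted p under 0.05 and 14 did not pass. Over all 14357 genes tested, 34.5% passed in either direction, 18.3% being lower and 16.2% higher in the cancers. No envelope gene was higher in the cancers by limma, either after adjustment or at an unadjusted p under 0.05 (0 genes in both cases). The remaining gene, Sprr4, was not tested because it was listed at 3, 0 and 0 FPKM in control tissue and at 0 in every cancer. The median log2 fold change of the 45 genes was -4.10, beside -0.04 for all genes tested, with a range from -5.62 for Lor to -0.26 for Sprr2h. In 35 of the 45 genes every cancer lay below every control sample, a pattern found in 19.8% of all genes tested. In bulk tissue, fewer squamous cells and less RNA per squamous cell cannot be told apart. Nothing in the sample labels names the animal behind each sample, so p-values measure the spread between these samples.

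The count of 31 depended on the number of control samples and on the treatment of low values. Without control tissue 1, 2 or 3 it was 16, 15 or 15, and with a pseudocount of 0.1 in place of 1 it was 18. The direction was steadier, and 43 of the 45 genes had a negative log2 fold change under every alternative in which they were tested, the exceptions being Sprr2h and Ivl. The genes that passed under every alternative in which they were tested were Hrnr, Tgm3, Lce6a and the LCE1 genes Lce1e, Lce1g, Lce1h, Lce1i, Lce1k, Lce1l and Lce1m, 10 of the 31, and each of the others missed the threshold under at least 1 of them. Hrnr, Lce6a, Ivl, Sprr1b, Sprr2g, Sprr2h and Sprr2k were not tested in the alternative that required 5 FPKM on average. Rescaling every library to the same sum (TPM) moved the median log2 fold change over all genes tested from -0.04 to 0.81, and 26 envelope genes then fell.

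The cancers were not alike. Envelope genes together made up 0.770%, 1.20% and 0.911% of the FPKM sum in control tissue 1, 2 and 3. The share was 0.00545% in cancer 1 and 0.0396% in cancer 2, and it was 0.299%, 0.620% and 0.415% in cancers 3, 4 and 5. Cancers 1 and 2 thus had almost no envelope transcripts, with 39 and 37 of the 46 genes listed at 0, whereas 44 of the 46 genes were above 0 in each of the other cancers. This spread among cancers enters the standard errors, and a gene with a large mean difference could therefore miss the threshold.

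**Figure D1:**
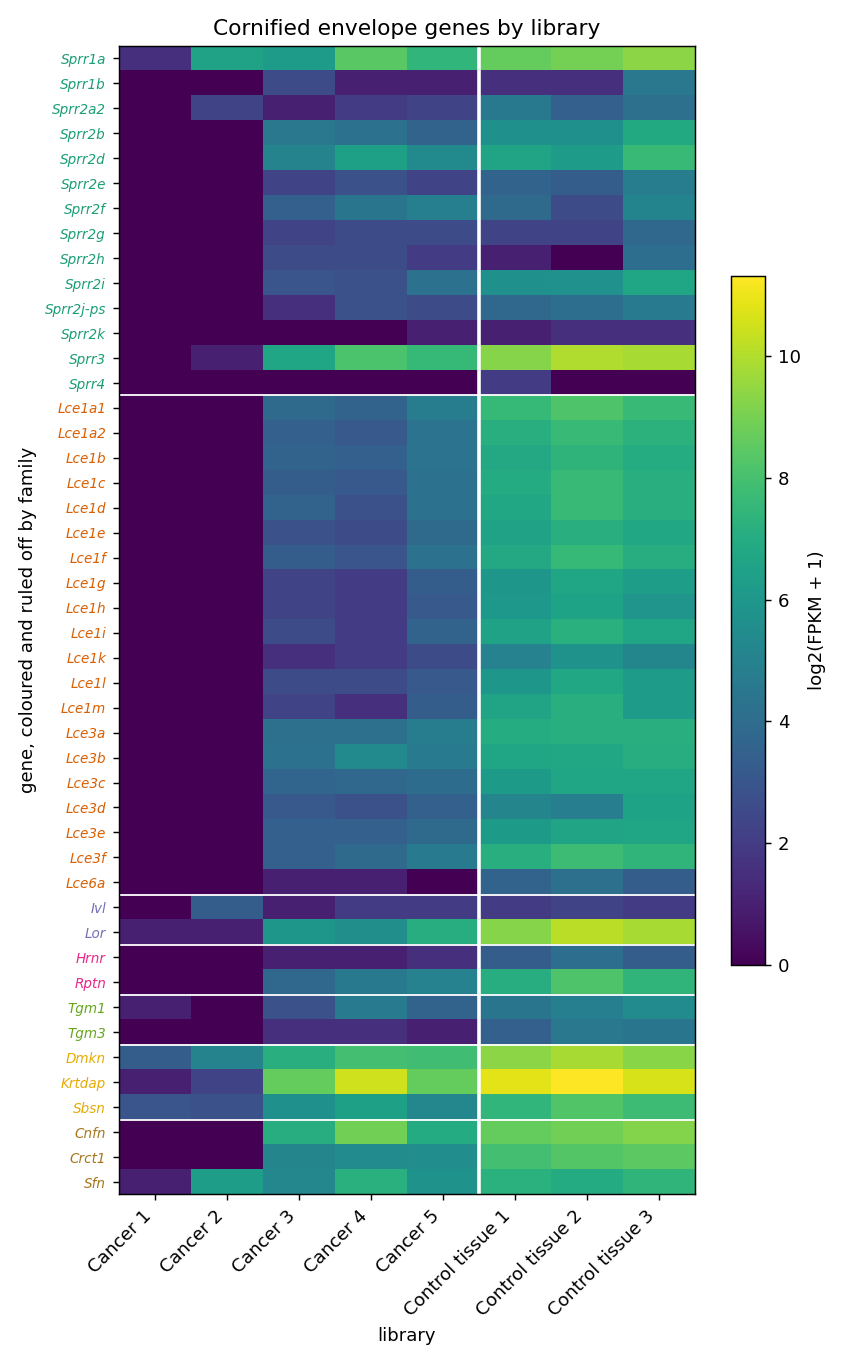
Heat map of log2(FPKM + 1) for each of the 46 envelope genes (rows, grouped by family) in the 5 cancers and 3 samples of control tissue (columns). Cancers 1 and 2 are near 0 for almost every gene, with 39 and 37 genes listed at 0, and cancers 3, 4 and 5 lie between them and control tissue for most genes.

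Loricrin, the glycine-rich protein that forms most of the envelope in keratinized epithelia, was among the genes with the largest differences, and which gene led depended on the scale. Lor had the largest log2 fold change with a pseudocount of 1, whereas with a pseudocount of 0.1 Lce1a1 was at -6.75 and Lor at -5.98, and by the ratio of means Lce1m was 34.4-fold lower and Lor 18.2-fold lower. Lor (chromosome 3, 92080271 to 92083142, mm10) was at 1, 1, 62, 47 and 131 FPKM in cancers 1 to 5 and at 605, 1123 and 921 in control tissue. All cancers lay below all control samples, and cancers 1 and 2 stood far below the other cancers. The mean fell from 883 ± 261 (SD, n = 3) to 48.4 ± 53.6 FPKM (SD, n = 5), and the difference of mean log2 values was -5.62 (SE 1.53, limma adjusted p = 0.027). Ivl, which encodes the early scaffold protein involucrin, was near the lowest values that whole numbers can show. It was at 0, 9, 1, 3 and 3 FPKM in the cancers and at 3, 4 and 3 in control tissue. The groups overlapped, cancer 2 was above every control sample, and the difference did not pass (log2 fold change -0.44 with an SE of 0.66, limma adjusted p = 0.62).

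LCE genes encode small cysteine- and glycine-rich proteins that are added to the envelope late in differentiation. Of 20 genes, 19 fell, the exception being Lce3b (limma adjusted p = 0.057), and in all 20 every cancer was below every control sample. The shares over all genes tested were 18.3% and 19.8%. All 20 were listed at 0 in cancers 1 and 2. Their median log2 fold change was -4.79, with a range from -5.37 to -3.29. Lce1a1, the LCE gene with the highest control mean (230.0 ± 57.7 FPKM, SD, n = 3), was at 0, 0, 14, 11 and 26 FPKM in the cancers and 189, 296 and 205 in control tissue. Its log2 fold change was -5.37 (SE 1.20, limma adjusted p = 0.014). Lce1m was at 0, 0, 4, 2 and 9 FPKM in the cancers and 98, 136 and 76 in control tissue (log2 fold change -5.22 with an SE of 0.79, limma adjusted p = 0.0035). In both genes the highest cancer, cancer 5, was still well below the lowest control sample.

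The 13 LCE1 genes all fell, with a median log2 fold change of -5.05, and their control values ranged from 31 to 296 FPKM. Their median level was 5.87%, 4.78% and 11.5% of the control mean in cancers 3, 4 and 5. Of the 6 LCE3 genes, 5 fell, with a median log2 fold change of -4.28, and the median levels in the same cancers were 12.7%, 12.0% and 17.6%. Lce3b was at 0, 0, 18, 40 and 24 FPKM in the cancers and 99, 110 and 133 in control tissue. Cancer 4 was at 35.1% of its control mean. Lce3f, the highest of the LCE3 genes in control tissue, was at 0, 0, 10, 14 and 24 FPKM in the cancers and 142, 217 and 169 in control tissue. The single LCE6 gene, Lce6a, was the lowest LCE gene in control tissue at 11, 17 and 9 FPKM, and was at 0, 0, 1, 1 and 0 in the cancers. It had the smallest standard error of the LCE genes (log2 fold change -3.29 with an SE of 0.35, limma adjusted p = 0.0011). Cancer values of only 0 or 1 FPKM leave little room for spread on this scale. With a pseudocount of 0.1 the log2 fold change of Lce6a was -5.52 (limma adjusted p = 0.0080). No test compared LCE1 with LCE3 genes.

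LCE genes are close copies of each other, which limits how far single genes can be separated. Of the stretches of 50 bases in an LCE transcript (GENCODE vM21), a median of 19.5% also occurred in another envelope gene, with a highest value of 49.3%, and 5 of the 20 genes shared at least 25%. For SPRR genes the highest value was 10.6%, and 8 of 14 shared none. The values of single LCE genes may therefore hold reads of neighbouring copies.

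SPRR genes encode proline-rich proteins that bridge other envelope proteins. Of 13 tested genes 5 fell (Sprr2a2, Sprr2e, Sprr2i, Sprr2j-ps and Sprr2k) and 8 did not pass, beside the 18.3% of all genes tested that fell. The difference between the SPRR and LCE genes was not tested. Every SPRR gene tested had a negative log2 fold change, with a median of -2.54. In 7 of the 13 every cancer was below every control sample, beside 19.8% of all genes tested. Sprr3, the most abundant SPRR gene in control tissue, was at 0, 1, 104, 274 and 188 FPKM in the cancers and 618, 1000 and 901 in control tissue. The groups did not overlap, but the cancers spread from 0 to 274 FPKM. The log2 fold change was -5.01 (SE 2.03), and limma gave an adjusted p of 0.089 and an unadjusted p of 0.040. A two-sided exact permutation test gave an unadjusted p of 0.036, the smallest p that 5 against 3 samples allow with the smaller tail doubled. It is the same for every envelope gene in which all cancers lay below all control samples.

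Sprr1a was the other abundant SPRR gene. It was at 2, 91, 76, 339 and 175 FPKM in the cancers and 397, 490 and 651 in control tissue. Here cancer 2 was not near 0, and cancer 4 reached 66.1% of the control mean. The groups did not overlap, yet the difference did not pass (log2 fold change -2.93 with an SE of 1.39, limma adjusted p = 0.13). Sprr1b was at or below 5 FPKM in every cancer and at 2, 2 and 22 in control tissue, where 1 sample held nearly all of the signal.

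The SPRR2 genes form the largest group of the family and were uneven. Sprr2i was at 0, 0, 7, 6 and 18 FPKM in the cancers and 51, 52 and 101 in control tissue (log2 fold change -4.02 with an SE of 1.03, limma adjusted p = 0.022). Sprr2b was at 0, 0, 22, 18 and 11 FPKM in the cancers and 50, 50 and 117 in control tissue, without overlap, and just missed the threshold (limma adjusted p = 0.054). Sprr2d was at 0, 0, 32, 85 and 41 FPKM in the cancers and 97, 73 and 197 in control tissue, and cancer 4 lay above the lowest control sample. Sprr2f was at 0, 0, 10, 20 and 29 FPKM in the cancers and 14, 5 and 33 in control tissue, so that cancers 4 and 5 held 115% and 167% of the control mean (log2 fold change -1.31 with an SE of 1.34, limma adjusted p = 0.46).

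Among the lower SPRR2 genes, Sprr2e was at 0, 0, 4, 6 and 4 FPKM in the cancers and 11, 9 and 27 in control tissue. The pseudogene Sprr2j-ps was at 0, 0, 2, 6 and 5 FPKM and 13, 16 and 25. Both passed, with adjusted p of 0.047 and 0.024 from limma. The gene listed as Sprr2a2 was at 0, 4, 1, 3 and 4 FPKM in the cancers and 23, 10 and 17 in control tissue, but the locus given for it does not hold the start of the RefSeq gene of that name, so its identity is uncertain. Sprr2k passed on values of 0 to 1 FPKM in the cancers and 1 to 2 in control tissue. Sprr2g and Sprr2h were at most 5 FPKM in any cancer, overlapped with control tissue and did not pass. Sprr2h was at 1, 0 and 16 FPKM in control tissue, and its log2 fold change of -0.26 turned positive without control tissue 3 (0.93).

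Control tissue 3 was the highest control sample for 10 of the SPRR genes, whereas control tissue 2 was highest for 16 of the 20 LCE genes. Stress-associated keratins, which squamous cells induce in wounding and rapid renewal, also differed between the control samples. Krt16 was at 8, 5 and 105 FPKM, Krt6a at 7, 8 and 31 and Krt17 at 23, 25 and 66 in control tissue 1, 2 and 3. Their part in the SPRR values was not tested.

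**Figure D2:**
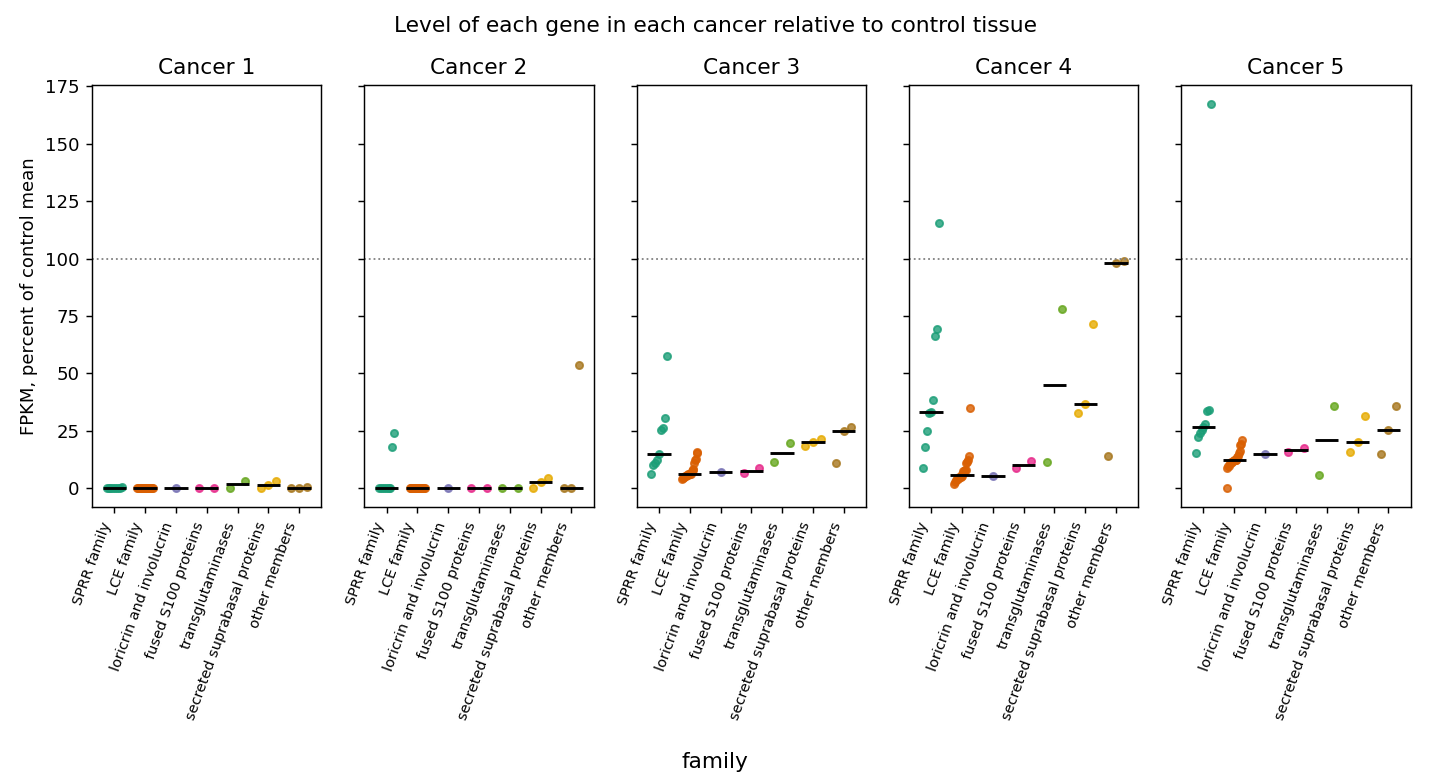
Level of each envelope gene with a control mean of at least 10 FPKM, as a percentage of that mean, in each of the 5 cancers, by family. Each point is a gene, the bar is the median of the family and the dotted line marks 100%; the SPRR medians in cancers 3, 4 and 5 are 14.8%, 33.3% and 26.5% and the LCE medians are 6.10%, 5.67% and 12.2%.

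Repetin and hornerin belong to the fused S100 proteins, large repeat proteins of the granular layer related to filaggrin. Both genes fell. Rptn was at 0, 0, 13, 23 and 31 FPKM in the cancers and 130, 292 and 168 in control tissue (log2 fold change -4.86 with an SE of 1.32, limma adjusted p = 0.027). Hrnr was at 0, 0, 1, 1 and 2 FPKM in the cancers and 9, 16 and 9 in control tissue (log2 fold change -2.86 with an SE of 0.41, limma adjusted p = 0.0032). Neither gene overlapped between the groups, and cancer 5 held the highest cancer value of both.

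The transglutaminases differed from each other in outcome. Tgm3, a cytosolic enzyme that cross-links envelope precursors, was at 0, 0, 2, 2 and 1 FPKM in the cancers and 10, 22 and 20 in control tissue (log2 fold change -3.29 with an SE of 0.48, limma adjusted p = 0.0033). Tgm1, the membrane-bound enzyme that attaches the envelope at the cell periphery, was at 1, 0, 6, 24 and 11 FPKM in the cancers and 20, 29 and 43 in control tissue. Cancer 4 lay within the control range, at 78.3% of the control mean, and the difference did not pass (log2 fold change -2.51 with an SE of 1.02, limma adjusted p = 0.088). The difference between the enzymes was not tested.

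Krtdap, Sbsn and Dmkn encode secreted proteins of suprabasal cells and lie next to each other on chromosome 7. In all 3 genes every cancer was below every control sample. Krtdap, the most abundant envelope gene in control tissue, was at 1, 4, 399, 1432 and 399 FPKM in the cancers and 1842, 2555 and 1604 in control tissue. Its cancer values spanned from 1 FPKM to 71.6% of the control mean in cancer 4, and it did not pass (log2 fold change -4.72 with an SE of 2.24, limma adjusted p = 0.13). Sbsn was at 7, 6, 50, 85 and 37 FPKM in the cancers and 175, 306 and 215 in control tissue (log2 fold change -3.19 with an SE of 0.87, limma adjusted p = 0.027). Dmkn was at 9, 32, 136, 242 and 232 FPKM in the cancers and 652, 910 and 641 in control tissue (log2 fold change -3.25 with an SE of 1.06, limma adjusted p = 0.048). Cancer 4 was the highest cancer for all 3 genes, and all 3 were above 0 in every cancer.

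Of the remaining genes, Crct1, a cysteine-rich gene of the complex, was at 0, 0, 34, 43 and 46 FPKM in the cancers and 245, 314 and 356 in control tissue (log2 fold change -5.01 with an SE of 1.55, limma adjusted p = 0.041). Cnfn encodes cornifelin, an envelope component. It was at 0, 0, 130, 477 and 124 FPKM in the cancers and 395, 473 and 590 in control tissue, and cancer 4, at 98.1% of the control mean, lay within the control range. Sfn encodes the adaptor protein 14-3-3 sigma, which is also transcribed outside squamous epithelium and is a known target of p53. It was at 1, 79, 37, 146 and 53 FPKM in the cancers and 148, 125 and 169 in control tissue, and cancer 4 again lay within the control range. Neither passed, with adjusted p of 0.16 for Cnfn and 0.22 for Sfn from limma.

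**Figure D3:**
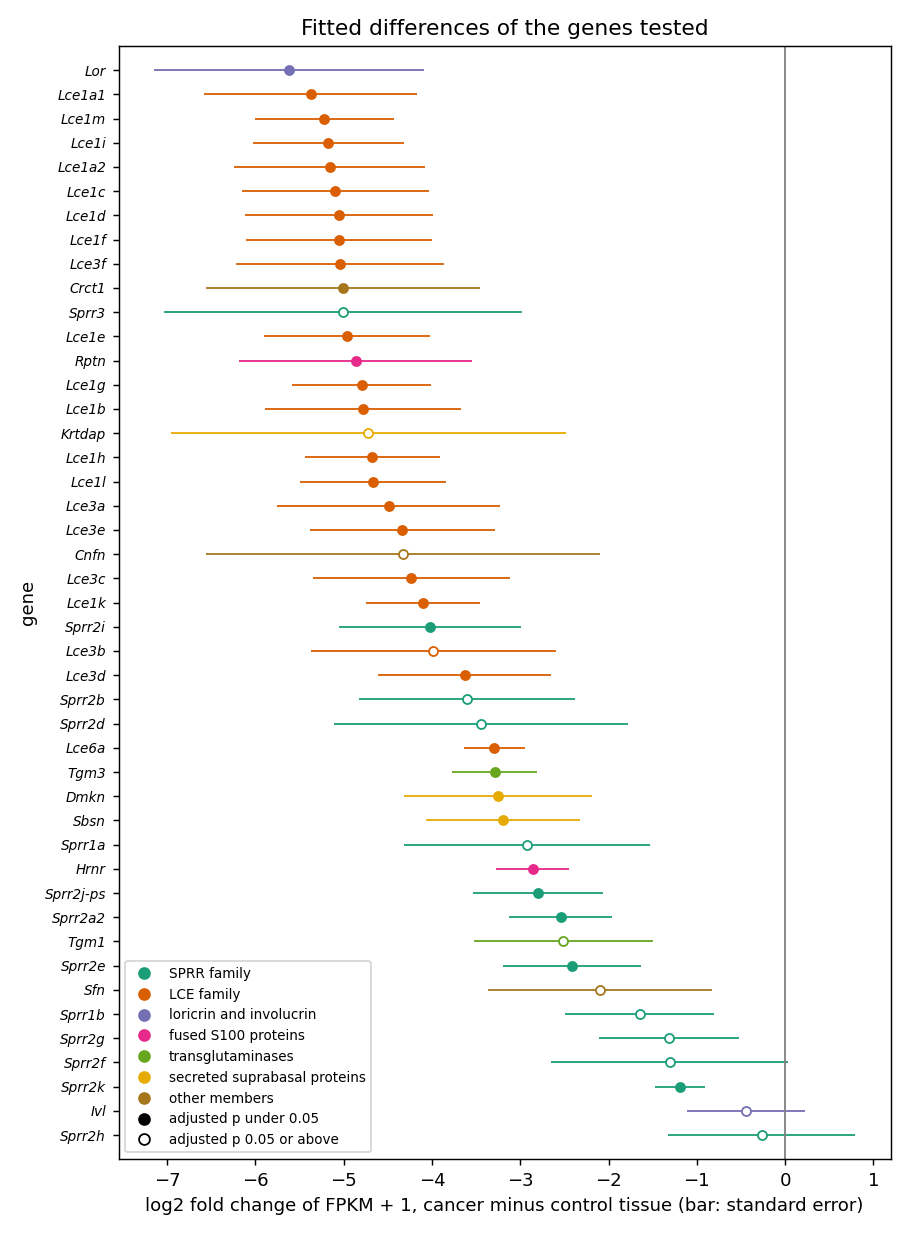
Log2 fold change of FPKM + 1 (cancer minus control tissue, horizontal axis) with its standard error for each of the 45 envelope genes tested, grouped by family. Filled points passed an adjusted p under 0.05 in limma; all points lie below 0, from -5.62 for Lor to -0.26 for Sprr2h.

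The cancer with the highest value differed by family. Cancer 5 was highest for 25 of the envelope genes, 18 of them LCE genes, and cancer 4 was highest for 12, including 5 SPRR genes and the 3 secreted proteins. Over genes with a control mean of at least 10 FPKM, the median level was 10.7%, 11.5% and 15.6% of the control mean in cancers 3, 4 and 5. Cancer 2, near 0 for most of these genes, held 53.6% of the control mean for Sfn, 24.0% for Sprr2a2 and 17.8% for Sprr1a.

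The basal keratins Krt5 and Krt14 and the transcription factor gene Trp63 were higher in cancer 4 than in control tissue. They were chosen after their values were seen. Krt5 was at 0, 1, 85, 574 and 57 FPKM in the cancers and 128, 170 and 203 in control tissue, and its partner Krt14 was at 0, 3, 91, 403 and 75 and at 100, 119 and 143. Trp63, which encodes the master regulator of squamous epithelium p63, was at 0, 0, 4, 21 and 4 FPKM in the cancers and 7, 11 and 9 in control tissue. In cancer 4 these genes were therefore above every control sample, at 344%, 334% and 233% of the control means, while the envelope genes with a control mean of at least 10 FPKM had a median of 11.5%. They ranged widely in this cancer, from Lce1m at 1.94% over Lce1a1 at 4.78%, Lor at 5.32%, Sprr1a at 66.1%, Sprr2d at 69.5%, Krtdap at 71.6% and Tgm1 at 78.3% to Cnfn at 98.1%, Sfn at 99.1% and Sprr2f at 115%. The 7 basal adhesion genes did not share this level, with a sum of 95 FPKM in cancer 4 and of 255, 175 and 176 in control tissue. The stress-associated keratins Krt17, Krt6a, Krt6b and Krt16 were also above their control means in cancer 4, at 755%, 424%, 267% and 239%. None of Krt5, Krt14 and Trp63 passed in limma (adjusted p of 0.29, 0.37 and 0.27).

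Krt1, Krt4, Krt10 and Krt13, keratins of differentiating cells, were lower in every cancer than in any control sample. Krt10 was at 2, 4, 149, 261 and 188 FPKM in the cancers and 1161, 1947 and 1651 in control tissue (log2 fold change -5.25 with an SE of 1.65, limma adjusted p = 0.043). Krt4, a suprabasal keratin of internal squamous linings, was at 0, 2, 26, 96 and 89 FPKM and 337, 725 and 426 (limma adjusted p = 0.044). Krt1 and Krt13 had log2 fold changes of -5.78 and -4.97 without passing, with adjusted p of 0.056 and 0.078 from limma. Of 12 squamous keratins tested, 3 fell, namely Krt10, Krt4 and Krt78, beside 18.3% of all genes tested. That count was 1 without cancer 1, 2 or 3 or without any 1 control sample, and 5 without cancer 4.

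**Figure D4:**
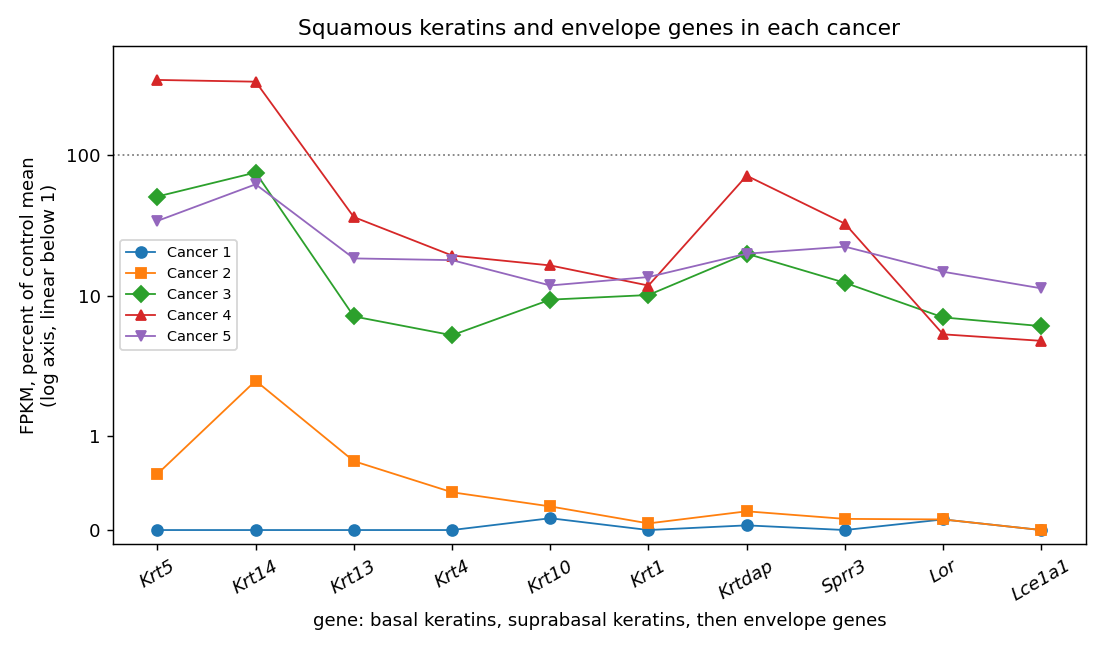
FPKM as a percentage of the control mean (logarithmic axis, linear below 1%) in each of the 5 cancers, for basal keratins, suprabasal keratins and envelope genes from left to right, chosen after their values were seen; lines only join the values of 1 cancer. Cancer 4 lies above 100% for the basal keratins Krt5 (344%) and Krt14 (334%) and below 100% for the envelope genes plotted, which run from Krtdap (71.6%) and Sprr3 (32.6%) to Lor (5.32%) and Lce1a1 (4.78%).

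Other genes of cornification outside the chosen names also were lower, 16 of 26 tested having fallen, beside 18.3% of all genes tested. Their median log2 fold change was -2.56. Asprv1, a protease that processes filaggrin, was at 1, 1, 38, 46 and 99 FPKM in the cancers and 483, 720 and 626 in control tissue (log2 fold change -5.34 with an SE of 1.42, limma adjusted p = 0.025). Spink5, an inhibitor of kallikreins, had a log2 fold change of -4.35, Klk5, a kallikrein of the outer layers, one of -4.02, and Casp14, a caspase of cornifying cells, one of -3.97. Each passed, with adjusted p of 0.022, 0.0020 and 0.0058 from limma. Without control tissue 1, 2 or 3, 9 genes of this list fell.

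Of 14 genes for the scaffold and desmosomes, 11 fell, beside 18.3% of all genes tested. Their median log2 fold change was -1.97. Dsc1 and Dsg1b, cadherins of the upper layers, had log2 fold changes of -3.74 and -3.09, and Dsc2 and Dsp, which glandular epithelium also expresses, had -2.56 and -2.31. All 4 passed, with adjusted p between 0.0035 and 0.021 from limma. Without cancer 3 or any 1 control sample, 6 genes fell. Of 14 transcription factors of squamous epithelium, 6 fell, beside the same 18.3% of all genes tested. Klf4, which promotes barrier formation, was at 15, 93, 28, 46 and 57 FPKM in the cancers and 318, 209 and 252 in control tissue (log2 fold change -2.64 with an SE of 0.53, limma adjusted p = 0.0097). Its highest cancer value was in cancer 2, in which Trp63 was listed at 0. Which cells held the Klf4 transcripts was not tested. Ovol1 and Zfp750 also fell, with log2 fold changes of -2.07 and -1.51. Grhl3 missed the threshold (log2 fold change -2.12, limma adjusted p = 0.058). The count of 6 was 3 without cancer 3 or control tissue 1 and 2 without control tissue 2. Of 7 genes of basal adhesion 1 fell, Itga6 (log2 fold change -1.01, limma adjusted p = 0.026), beside 18.3% of all genes tested. Itga6 did not pass without cancer 3 or any 1 control sample, and with array weights 5 genes of this list fell. Lamb3 and Itgb4 had log2 fold changes of -2.46 and -2.13 and did not pass. With TPM, 6 scaffold and desmosome genes, 1 transcription factor gene and 0 basal adhesion genes fell.

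Markers of other cell types differed between the samples as well. The 10 markers of gastric glandular cells summed to 694, 78716, 6015, 55566 and 16662 FPKM in cancers 1 to 5 and to 240752, 158537 and 224870 in control tissue. In cancer 1 the parietal cell genes Atp4a and Atp4b, the intrinsic factor gene Gif and the pit cell mucin Muc5ac were all listed at 0. The control sums include Pgc, a chief cell gene listed at 28832, 0 and 0 FPKM in control tissue. Its log2 fold change of 4.05 (SE 3.88) is among those behind the median of this list. The 10 genes had a median log2 fold change of -4.50, beside -4.10 for the envelope genes. In 7 of the 10 every cancer was below every control sample, beside 19.8% of all genes tested. In limma 6 were lower at an unadjusted p under 0.05 and 1 after adjustment, the pit cell gene Gkn1 (log2 fold change -3.81). After adjustment 18.3% of all genes tested were lower. Cancer 2, with few envelope transcripts, thus had a higher glandular sum than cancers 3 and 5, which had more envelope transcripts. Of the 6 markers of simple epithelium, 3 rose and 1 fell, beside 16.2% and 18.3% of all genes tested. Cldn3 was at 20 to 64 FPKM in the cancers and at 1 in each control sample (log2 fold change 4.14), Cldn4 and Epcam rose with log2 fold changes of 1.96 and 1.17, and Krt8 fell with one of -2.02. Krt19 did not pass (log2 fold change -3.16). Leukocyte markers were at their highest in cancer 1, at a sum of 381 FPKM, while the other cancers were between 35 and 104 and control tissue between 21 and 44, and the macrophage and neutrophil gene Lyz2 made up 252 FPKM of it and the B cell gene Cd79a 68. Smooth muscle markers summed to 41, 1313, 405, 299 and 63 FPKM in the cancers and to between 308 and 434 in control tissue, and the liver markers summed to 445 in cancer 5 against at most 58 elsewhere. The part of these cell types in the envelope gene values was not tested.

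The complex on chromosome 3 was examined by position. Between the first and last of its structural genes, from 92080271 to 93399442 (mm10), the table held 47 genes, 39 of them envelope genes. Of the other 8, 4 were listed at 0 in every sample and 3 were tested. Kprp, a proline-rich protein of keratinocytes, was at 0, 0, 2, 2 and 8 FPKM in the cancers and 36, 75 and 49 in control tissue, and 2310050C09Rik was at 0, 0, 4, 4 and 8 and at 42, 73 and 52. Both fell, with log2 fold changes of -4.43 and -4.23 (adjusted p of 0.0047 and 0.0073 from limma). Crnn, a fused S100 gene, was at 0 to 1 FPKM in the cancers and 1 to 2 in control tissue and did not pass (limma adjusted p = 0.095). Within the interval the SPRR genes lay together, with a median log2 fold change of -2.54, and the LCE genes lay further along, with a median of -4.79. The 7 envelope genes elsewhere in the genome were Krtdap, Sbsn, Dmkn and Cnfn on chromosome 7, Tgm1 on chromosome 14, Tgm3 on chromosome 2 and Sfn on chromosome 4, and Dmkn, Sbsn and Tgm3 among them fell.

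**Figure D5:**
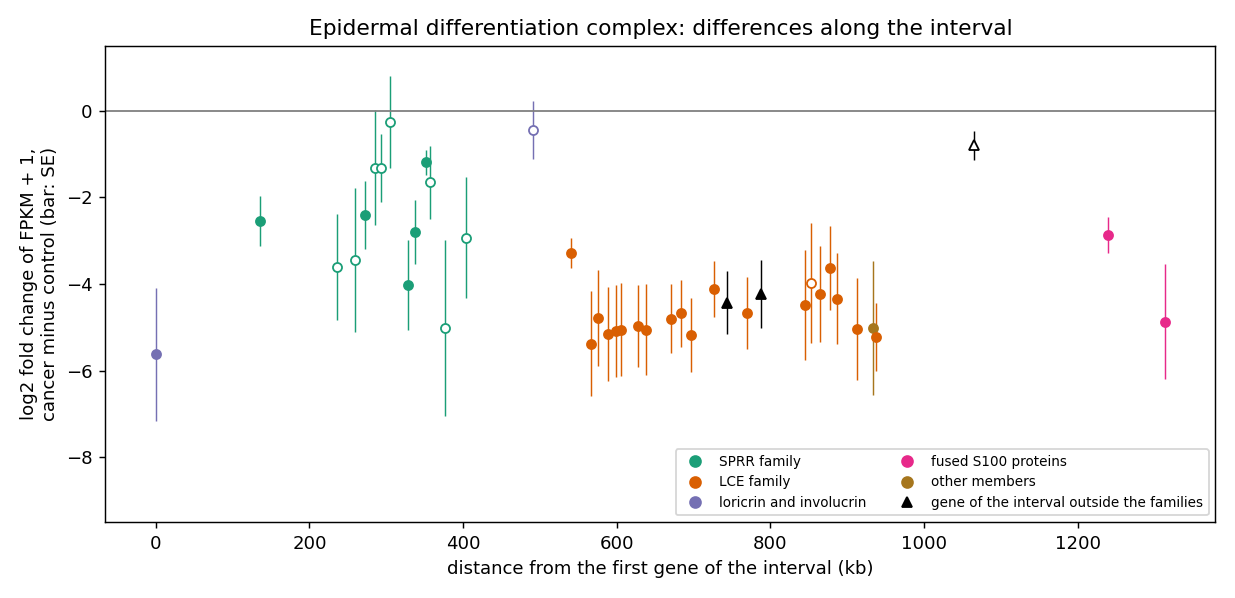
Log2 fold change of FPKM + 1 (cancer minus control tissue) with its standard error against the distance in kb from the first gene of the epidermal differentiation complex, for envelope genes (circles by family) and other genes of the interval (triangles). Filled symbols passed an adjusted p under 0.05 in limma; LCE genes lie between -5.37 and -3.29 and SPRR genes between -5.01 and -0.26.

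The sequence just upstream of the gene start was available for 41 of the 46 genes from RefSeq (GRCm38.p6). The 250 bases before the start are shown for Sprr3 and Lce1a1, the SPRR and LCE genes with the highest control means, and for Sprr1a and Lor, which were added after their values were seen to show motifs the first pair lacks. All 4 are on the minus strand and are written 5′ to 3′ along the gene. They lie at chr3:92458721-92458970 (Sprr3), chr3:92485882-92486131 (Sprr1a), chr3:92648308-92648557 (Lce1a1) and chr3:92083143-92083392 (Lor). Capitals mark matches, on either strand, to TGANTCA (the AP-1 motif), CACCC (bound by Krüppel-like factors) or TATAAA (the TATA box).
Sprr3: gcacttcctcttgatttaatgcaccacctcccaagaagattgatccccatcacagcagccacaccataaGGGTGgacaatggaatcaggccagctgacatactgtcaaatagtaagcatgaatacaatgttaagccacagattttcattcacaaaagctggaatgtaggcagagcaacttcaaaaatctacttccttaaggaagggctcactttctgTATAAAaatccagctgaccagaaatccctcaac
Sprr1a: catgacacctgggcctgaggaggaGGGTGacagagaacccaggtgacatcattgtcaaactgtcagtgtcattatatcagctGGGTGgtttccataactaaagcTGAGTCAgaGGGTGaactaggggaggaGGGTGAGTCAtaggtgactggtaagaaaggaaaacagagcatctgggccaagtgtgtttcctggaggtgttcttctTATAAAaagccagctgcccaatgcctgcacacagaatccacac
Lce1a1: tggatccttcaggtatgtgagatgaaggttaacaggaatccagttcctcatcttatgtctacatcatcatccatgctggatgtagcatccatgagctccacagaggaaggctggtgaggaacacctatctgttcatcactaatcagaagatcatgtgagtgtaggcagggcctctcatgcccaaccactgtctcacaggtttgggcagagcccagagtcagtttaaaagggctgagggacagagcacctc
Lor: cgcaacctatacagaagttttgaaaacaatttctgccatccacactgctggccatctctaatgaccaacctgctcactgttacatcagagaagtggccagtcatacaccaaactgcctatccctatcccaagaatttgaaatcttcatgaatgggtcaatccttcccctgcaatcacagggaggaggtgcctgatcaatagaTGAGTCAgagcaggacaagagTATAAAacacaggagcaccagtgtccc

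The Sprr1a sequence holds 2 matches to TGANTCA, at -146 and -116 from the gene start, 4 to CACCC, of which the one at -119 overlaps the AP-1 match at -116, and TATAAA at -43. The Lor sequence holds TGANTCA at -48 and TATAAA at -27. Sprr3 has CACCC at -181 and TATAAA at -33 and no match to TGANTCA, and Lce1a1 has no match to any of the motifs. Over all 41 genes, TGANTCA occurred in 15 (36.6%), against 6.87% of all 27025 promoters of that length. It was found in 9 of 11 SPRR genes and in 0 of 19 LCE genes, and otherwise in Ivl, Lor, Rptn, Dmkn, Krtdap and Sbsn. TATAAA occurred in 20 of the 41 (48.8%, against 13.0% of all promoters), including 10 of 11 SPRR and 4 of 19 LCE genes. CACCC occurred in 19 (46.3%, against 51.3%), including 5 of 11 SPRR and 6 of 19 LCE genes. AACCGGTT, the motif of Grainyhead-like factors, occurred in 0 of the 41 and in 0.122% of all promoters. Copies of a gene share upstream sequence, so these genes are not independent observations, and a match describes letters in this window only.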

How the data were processed

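The deposited values are FPKM that the authors rounded to whole numbers, so they count as a score rather than as reads (100% of values were whole). Per the submitters' processing notes and the methods, reads were trimmed with cutadapt 1.8, TopHat2 2.0.13 was among the tools, and mm10 genes were quantified with cuffquant and normalized with Cuffnorm 2.2.1, whose normalization option is not given in the sources used here. Depth is unknown, and rounding leaves few steps below 10 FPKM.

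Groups came from the sample labels (5 cancers, 3 control tissues). The 14357 genes that reached 1 FPKM in 3 or more samples entered a limma 3.58.1 fit in R 4.3.3 (lmFit, then eBayes allowing a trend), with 1 added to FPKM before taking log2. P-values were adjusted by Benjamini-Hochberg over all of these genes at a threshold of 0.05. When the fit was tested on simulated, rounded values, 178 changed and 21 unchanged genes were called. Unchanged genes thus made up 10.6% of the calls, a larger share than this threshold intends. The simulation had far fewer changed genes than the data and the same spread in both groups. Counts of calls may therefore be lenient, by an amount that it does not give. A fold change on this scale understates that of low genes. For single genes an exact permutation test, two-sided, ran over 56 splits (scipy 1.17.1). Genes and lists were chosen with earlier results of these data known. All envelope genes were accounted for, those with a control mean of at least 10 FPKM in most detail, and up to 4 genes of each other list, those with the largest absolute log2 fold change, of which 1 gene is not reported here. Of 28 other cornification genes, 27 were matched. Basal and stress-associated keratins and Trp63 were named after their values were seen. Alternatives were a pseudocount of 0.1, other filters (none, or mean FPKM of at least 5), array weights, no trend in eBayes, rescaling to the same sum (TPM), quantile normalization, a replicate block and leaving out each sample. Protein sequences were not used here.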

Additional observations from a re-analysis of the deposited data

Results flagged for a closer look

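In each of the 45 envelope genes whose cancer values varied, the gap between the highest or lowest cancer and its nearest neighbour was set against the range of the 5 cancers. On the log2(FPKM + 1) scale 1 gene had a cancer that stood apart. This was Sprr2k, at 1 FPKM in cancer 5 and at 0 in the other 4 cancers, where the gap was the whole range (1.0) and a single step of the rounded values. On the FPKM scale 4 genes had such a cancer, Sprr2k again with a gap of 1.0 of the range. Sprr1b was at 5 FPKM in cancer 3 and at 0 or 1 in the others, a gap of 0.80 of the range. Cnfn, at 477 FPKM in cancer 4 and at 130 or less in the others, had a gap of 0.727. Krtdap, at 1432 FPKM in cancer 4 and at 399 or less in the others, had a gap of 0.722. For normally distributed values, chance sets a sample apart in this way in about 5% of groups of this size. Rounded values with ties at 0 need not follow that rate.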

How the results depend on the processing

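The median log2 fold change of the envelope genes stayed between -5.52 and -3.42 over all alternatives. The number of envelope genes that fell, 31, was 37 with array weights, 18 with a pseudocount of 0.1, 17 with the replicate block and 15 to 34 when 1 sample was left out, and 10 of the 31 genes were called under every alternative in which they were tested (Hrnr and Lce6a among them were not tested under the filter on mean FPKM). The number of genes changed among all genes, 4948, was 8148 with array weights, 1534 with the replicate block, 7704 with TPM and 2490 to 5252 with 1 sample left out. TPM moved the median over all genes tested to 0.81 on the log2 scale, and with it 26 envelope genes fell. Sprr2h reversed to 1.06 with array weights, to 0.27 with TPM, and, with 1 sample left out, ranged from -1.11 (without control tissue 2) to 0.93 (without control tissue 3), at 0.097 without cancer 1 or cancer 2, and Ivl reversed to 0.11 with TPM. Scaffold and desmosome genes that fell (11) numbered 6 with the replicate block or TPM and 6 to 11 with 1 sample left out. Squamous keratins that fell (3) numbered 6 with array weights, 1 with a pseudocount of 0.1, quantile normalization or the replicate block, and 1 to 5 with 1 sample left out. Squamous transcription factors (6) numbered 1 with TPM and 2 to 7 with 1 sample left out, and other cornification genes (16) numbered 9 to 18. Basal adhesion genes (1) numbered 5 with array weights, 0 with quantile normalization, the replicate block or TPM, and 0 to 1 with 1 sample left out. What causes these changes was not tested. Of the values of single envelope genes under the alternatives, 598 had the same direction and outcome, 95 no longer passed, 14 newly passed and 6 reversed. Depth is unknown, so what it limits cannot be stated, and genes near 1 FPKM carry the rounding error. The replicate block rests on sample numbers that did not pair cancers with controls, with correlations of same-numbered deviations of -0.021, -0.19 and -0.10.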
